A study of Mus musculus with 2 samples.

Results

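The 9 genes described here serve gastric acid secretion or are gland products grouped with it: Atp4a, Atp4b, Kcne2, Kcnj15, Slc26a7, Slc4a2, Clic6, Gif and Esrrg. They were chosen by name from 21911 protein-coding genes of the mouse annotation GENCODE M21 (build mm10), and each locus ran from 10 kb before to 10 kb after the gene. Chromatin accessibility was measured by DNase-seq, which cuts nuclear DNA with DNase I where nucleosomes leave it uncovered and sequences the cut ends. The stomachs came from B6NCrl mice on postnatal day 0, with no treatment, allele or transgene named. There is 1 group of 2 biological replicates, so no conditions can be compared. The labels give both replicates the same donor and the sex as not collected, and it is not stated whether separate animals or pools were used.

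Parietal cells of the gastric glands secrete hydrochloric acid. The H+/K+ ATPase of their apical membrane exports protons in exchange for potassium, potassium channels return that potassium to the lumen, and anion exchangers of the basolateral membrane take up chloride and release bicarbonate. Histamine, acetylcholine and gastrin stimulate the process, which moves the pump from internal tubulovesicles to the cell surface. Estrogen-related receptor gamma, encoded by Esrrg, is a nuclear receptor known in the mouse stomach for its control of acid secretion and potassium handling genes. Gif encodes gastric intrinsic factor, which binds vitamin B12. In mice it is made mainly by chief cells and in humans by parietal cells, so Gif is a gland product but not a part of the acid machinery.

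All 9 loci held chromatin accessible in both replicates, as did 82.0% of all protein-coding loci. They held 64 of the 105606 shared regions, which are places where peaks of both replicates overlapped by at least 1 bp. The data come from whole stomach, so a site open in few cells and a site open weakly in many cells cannot be told apart. A weak peak at a parietal cell gene therefore says nothing of how open that site was within parietal cells.

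The sequences that carry the main observations are those of open sites at starts, and of the strongest site of Atp4a. They are mm10 reference sequence, written 5′ to 3′ on the strand of the gene, and capitals mark a match to a motif searched. Where a region ran into the transcript, only the bases outside it are shown.

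The strongest site of Atp4a lay upstream of the gene at chr7:30706616-30706785, and its capitals mark the estrogen-related receptor (ERR) motif TCAAGGTCA.
Atp4a upstream site: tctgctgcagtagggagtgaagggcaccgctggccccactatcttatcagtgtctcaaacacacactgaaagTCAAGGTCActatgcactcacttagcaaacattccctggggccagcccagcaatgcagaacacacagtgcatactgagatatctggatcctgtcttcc
The bases just before the annotated start of Atp4a, chr7:30711959-30712208, lay in no peak of either replicate. They are shown as the counterpart without a peak, and the capitals mark a match to the Grainyhead-like motif AACCNGTT.
Atp4a start, upstream bases: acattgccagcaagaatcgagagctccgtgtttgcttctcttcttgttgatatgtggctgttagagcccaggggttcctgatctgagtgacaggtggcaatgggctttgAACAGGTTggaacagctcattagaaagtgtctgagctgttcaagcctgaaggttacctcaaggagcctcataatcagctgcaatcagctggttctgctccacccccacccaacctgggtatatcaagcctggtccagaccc
The start of Atp4b was open over chr8:13396826-13396945 (minus strand), with no match to any of the 11 motifs searched.
Atp4b start: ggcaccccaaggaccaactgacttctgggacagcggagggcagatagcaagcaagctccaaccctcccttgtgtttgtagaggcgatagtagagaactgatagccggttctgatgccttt
The start of Kcne2 was open over chr16:92292256-92292388 and held a GC box, GGGCGG, on the other strand.
Kcne2 start: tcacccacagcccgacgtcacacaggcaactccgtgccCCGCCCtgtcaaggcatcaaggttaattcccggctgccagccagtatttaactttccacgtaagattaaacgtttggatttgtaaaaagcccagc
The strongest region of all 9 loci lay between Slc4a2 and Cdk5 at chr5:24423636-24423805, and its capitals mark the HNF4 motif CAAAGTCCA.
Slc4a2 first start: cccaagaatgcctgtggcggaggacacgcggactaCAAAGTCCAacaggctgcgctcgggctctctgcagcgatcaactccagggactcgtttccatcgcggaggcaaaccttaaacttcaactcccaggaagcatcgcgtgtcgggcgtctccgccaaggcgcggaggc
The start of Gif was open over chr19:11747396-11747553, again with no match.
Gif start: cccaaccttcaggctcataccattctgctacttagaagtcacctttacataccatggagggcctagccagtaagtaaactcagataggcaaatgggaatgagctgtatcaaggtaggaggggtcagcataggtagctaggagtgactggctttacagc
The inner start of Esrrg was open over chr1:187997716-187997826 and held a GC box.
Esrrg inner start: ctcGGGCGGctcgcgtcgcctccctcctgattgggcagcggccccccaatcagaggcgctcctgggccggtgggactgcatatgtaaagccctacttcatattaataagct

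The label of the tissue was checked against marker genes. Replicate 1 had 139654 peaks and replicate 2 had 153178, and their read depth is not known. A gene was called open when any of its annotated starts had a shared region reaching within 1 kb of it. By this rule 66.4% of all protein-coding genes were open. The epithelial genes Epcam, Cdh1, Krt8 and Krt18 were open, as were the 4 pit cell genes, both mucous neck cell genes, both chief cell genes and the 4 smooth muscle genes listed. The rule takes no account of strength. Among the smooth muscle genes, the region at the start of Actg2 was weak, at percentiles 16.3 and 15.3 of all peaks in replicates 1 and 2. Those of Myh11, Cnn1 and Des ranked from 49.4 to 84.0. Of the 2 genes of enterochromaffin-like cells, which release histamine, Hdc was open, though not at its outermost protein-coding start, and Slc18a2 was not. The 2 parietal cell genes listed, Atp4a and Atp4b, are members and are described below. Of 4 genes of other tissues (Alb, Cdx2, Myod1 and Neurod6) 0 were open, although the locus of Cdx2, an intestinal factor, held 5 shared regions away from its starts, or 1.89 per 10 kb.

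All 9 genes were open by that rule, where 66.4% of all protein-coding genes were. The rule counts every annotated transcript, including short and noncoding ones inside the gene. At the outermost protein-coding start alone, 7 of 9 were open, against 61.8% of genes. The exceptions were Atp4a and Clic6, which had no peak of either replicate within 1 kb of that start. Openness of starts goes with CpG content across the genome: among genes with the fewest CpGs there, an observed over expected ratio under 0.308, 16.1% were open at the outermost coding start. Atp4a, Atp4b, Kcne2, Kcnj15 and Gif were among them, with ratios from 0.110 at Gif to 0.267 at Kcne2, and 4 of these 5 were open there. With 9 genes chosen by name, these counts are a description and not a test.

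The loci ranged from 3 shared regions at Slc26a7 to 15 at Esrrg. The median was 6 per member locus, against 4 over all protein-coding loci (quartiles 1 to 7). Per 10 kb of locus the median was 1.19 shared regions for the members and 0.791 for all protein-coding loci (quartiles 0.285 to 1.40). Slc4a2 (2.69 per 10 kb), Kcne2 (2.33) and Atp4a (2.10) lay above the upper quartile, and Esrrg (0.240) and Slc26a7 (0.215) lay below the lower one. The densest loci also held other protein-coding genes, but so did some of the less dense ones. Slc4a2 shared its locus with Asic3, Cdk5, Fastk and Tmub1, Kcne2 with Smim11, and Atp4a with Gapdhs and Tmem147. Atp4b (1.31 per 10 kb) shared its locus with Grk1 and Tfdp1, Gif (1.11) with Mrpl16, and the sparsest, Slc26a7, with Lrrc69. Kcnj15, Clic6 and Esrrg had no other coding gene in the locus.

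**Figure D1:**
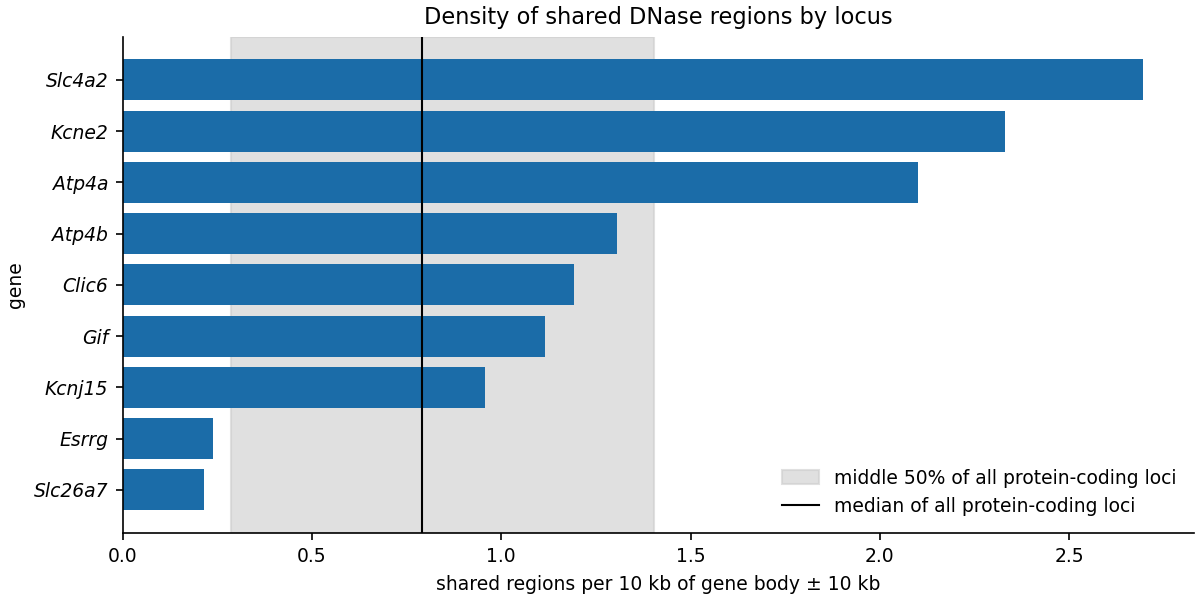
Shared DNase regions per 10 kb of gene and 10 kb flanks, for the 9 genes. The line is the median of all protein-coding loci (0.791) and the grey band their middle 50%; Slc4a2, Kcne2 and Atp4a lie above the band, and Esrrg and Slc26a7 below it.

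Of the 64 regions, 16 had their centre within 1 kb of a start of the member itself, 26 in one of its introns, 10 at the start of another gene, 2 in the body of another gene and 10 between genes. Thus 38 of the 64 lay away from any start, as did 72296 of all 105606 shared regions. The loci were drawn around genes, which sets this split in part. The strength of a peak is given below as its deposited signal, a number without a stated scale, and as its percentile, its rank among all peaks of the same replicate, with tied signals at their middle rank. Regions at the members' own starts had median percentiles of 78.6 in replicate 1 and 76.2 in replicate 2, and those at all starts 75.0 and 76.8. Member regions away from any start had medians of 61.2 and 54.9, and all such regions 55.8 and 58.5. In both classes the members were above the general median in replicate 1 and below it in replicate 2. Every one of the 64 lay in a hotspot, a wider interval of raised cleavage, in both replicates. Peaks and hotspots were called from the same alignments, so this is not separate support. The share over all shared regions is not given.

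The H+/K+ ATPase has a catalytic alpha subunit, encoded by Atp4a, and a glycosylated beta subunit, encoded by Atp4b, and the chromatin of their genes differed. Atp4a (chr7:30712209-30725534, plus strand) had 9 peaks in replicate 1 and 8 in replicate 2, which formed 7 shared regions. None of them touched the start of the gene. The nearest was centred 4568 bp upstream, with 56 in replicate 1 and 60 in replicate 2 as its signal. The upstream site with the ERR motif was centred 5508 bp before the start and was the strongest of the locus, with a signal of 99 in replicate 1 (percentile 95.3) and 113 in replicate 2 (97.2). A further upstream site, at 8008 bp, had 55 and 53. The 3 upstream sites thus lay before a start at which no peak was called in either replicate. The middle one was in the top 5% of peaks. The lack of a called peak does not show that the start was closed, because depth is unknown and the tissue is whole stomach.

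Inside Atp4a one site was strong. The region chr7:30717476-30717685 had a signal of 94 in replicate 1 (percentile 93.7) and 88 in replicate 2 (87.1), with its centre in an intron and a GC box within it. It lies 251 bp before the start of an internal transcript annotated as subject to nonsense-mediated decay that begins in exon 11 of the longest transcript, 5.623 kb downstream of the main start. Atp4a counted as open only through this transcript and through a retained-intron transcript whose start had a region of percentile 43.4 in replicate 1 and 54.2 in replicate 2 at the edge of the window. DNase-seq does not measure transcription, and whether either start was used in these stomachs is not shown by the peaks. Downstream, a region of signal 87 and 98 and one of 55 and 50 lay at the start of Tmem147, the adjacent gene.

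Atp4b (chr8:13386205-13396825, minus strand) showed the other arrangement, with an open start and weak sites throughout. The region chr8:13396756-13396945 covered its start, with a signal of 38 in replicate 1 (percentile 39.4) and 43 in replicate 2 (33.1). Its strongest region was intronic, chr8:13394016-13394185, with 44 (percentile 50.8) and 51 (47.8). The other 2 regions, 6846 bp upstream and 14054 bp downstream of the start, had 36 and 46, and 32 and 39. Of the 4 shared regions of Atp4b, the intronic one alone reached the median signal of all peaks in replicate 1, which was 44, and none reached that of replicate 2, which was 52. When the stronger 50% of each list was used, Atp4b kept 0 shared regions.

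Kcne2 encodes a small subunit that keeps the potassium channel Kcnq1 open in parietal cells. Its start (chr16:92292389-92298129, plus strand) was covered by chr16:92292256-92292405, with a signal of 73 in replicate 1 (percentile 83.7) and 65 in replicate 2 (67.4). Another coding start, 3227 bp further in, had a weaker region 835 bp before it, with 39 (41.4) and 51 (47.8). That region and its neighbour each held the SOX motif AACAATG. The strongest region of the locus, chr16:92301156-92301305, had 102 (96.2) and 106 (95.2) and lay at the start of Smim11, a neighbouring gene. Replicate 1 had 6 peaks in the locus and replicate 2 had 11. All 5 peaks found in replicate 2 alone lay beyond the Smim11 region, at percentiles from 36.9 to 44.3.

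Kcnj15 encodes the inwardly rectifying potassium channel Kir4.2. The main start of Kcnj15 (chr16:95257558-95300260, plus strand), which 12 of its 13 transcripts use or begin near, was covered by chr16:95257516-95257685, its strongest region by the mean of both percentiles. That region had a signal of 67 in replicate 1 (percentile 79.4) and 60 in replicate 2 (61.2) and held the GATA motif AGATAA. In replicate 2 a pair of other regions had 62. The start of the remaining transcript, 21635 bp further in, had no peak in either replicate within 1 kb. The other 5 regions had signals from 36 to 52 in replicate 1 and from 40 to 62 in replicate 2. The one 3877 bp upstream differed most between replicates, with 36 (percentile 35.2) in replicate 1 and 62 (63.8) in replicate 2. Replicate 2 had 4 peaks here without a partner and replicate 1 had 1.

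Slc26a7 and Slc4a2 encode chloride/bicarbonate exchangers of the basolateral membrane, and per kb they were the sparsest and the densest loci of the 9. Slc26a7 (chr4:14502430-14621805, minus strand) had 3 shared regions in 139.376 kb. The start was covered by its strongest region, with a signal of 74 in replicate 1 (percentile 84.3) and 78 in replicate 2 (80.3). The other 2 were intronic, 77894 and 115014 bp downstream, with 58 and 66, and with 33 and 49. Slc26a7 thus had an open start and few other sites.

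Slc4a2, also known as AE2, is widely expressed and makes its transcripts from several promoters (chr5:24423837-24440950, plus strand). All 4 of its coding start groups were open in both replicates. The region at the first, chr5:24423636-24423805, lay between Slc4a2 and the start of Cdk5, which is transcribed the other way, and had a signal of 118 in replicate 1 (percentile 99.3) and 128 in replicate 2 (99.7). The region at the second, chr5:24425136-24425285, had 89 (91.9) and 102 (93.8) and a GC content of 82.0%. At the third, 2994 bp from the first, the stronger of its regions had 65 (77.7) and 97 (91.7). The fourth start group, 4371 bp from the first and in intron 2 of the longest transcript, had 107 (97.5) and 109 (96.2). That inner site was stronger than those at the second and the third in both replicates, and the observed over expected CpG ratio around it was 0.250, against 0.833 at the second. Of 5 noncoding starts further in, 4 had no shared region within 1 kb, and the fifth was counted through the region of the fourth coding start. The 4 peaks of the locus without a partner were all in replicate 2 and all within 1 kb of a start.

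**Figure D2:**
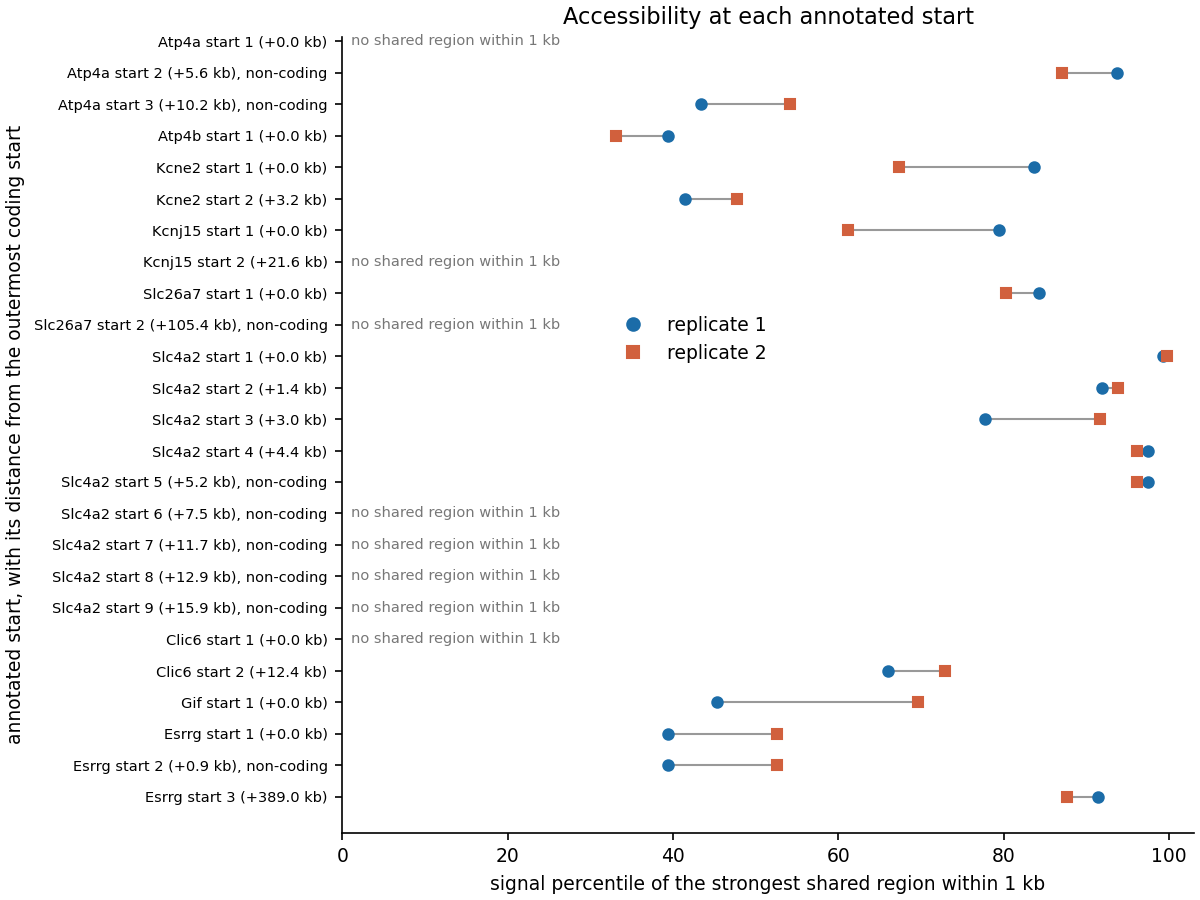
Signal percentile of the strongest shared region within 1 kb of each of the 25 start groups of the 9 genes, in replicate 1 (circles) and replicate 2 (squares); starts within 500 bp were joined, and distances are from the outermost protein-coding start. The 3 coding starts without a region are the first of Atp4a, the second of Kcnj15 and the first of Clic6, and the highest points are at the first start of Slc4a2.

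Clic6 encodes parchorin, a member of the chloride intracellular channel family found in secretory epithelia including parietal cells. Clic6 (chr16:92485736-92541243, plus strand) has 2 annotated coding starts 12398 bp apart. The outer one had no peak within 1 kb in either replicate, and the inner one had the region chr16:92498576-92498745, centred 527 bp downstream of it in the exon, with a signal of 54 in replicate 1 (percentile 66.0) and 70 in replicate 2 (72.9). Between both starts stood 5 shared regions, from 3895 to 8925 bp downstream of the outer one. The strongest of the locus by the mean of both percentiles was among them, chr16:92494576-92494745, with 75 (85.0) and 91 (88.8), and 4 of the 5 were stronger than the region at the inner start in both replicates. The remaining one had 56 and 68. In replicate 1 alone 6 further peaks lay from 13195 to 33135 bp downstream of the outer start, at percentiles from 28.8 to 50.8. Clic6 and Kcne2 lie 187.607 kb apart on chromosome 16, so their loci do not overlap.

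The start of Gif (chr19:11747554-11763447, plus strand) was open in both replicates but differed in strength. The region chr19:11747396-11747565 had a signal of 41 in replicate 1 (percentile 45.3) and 67 in replicate 2 (69.7). All 4 peaks of each replicate had a partner. The intronic region 8077 bp downstream went the other way, with 50 (60.4) and 44 (35.0). The strongest region, chr19:11770296-11770445, had 83 (89.2) and 100 (93.0) and lay at the start of Mrpl16, a gene of the mitochondrial ribosome, with the CREB motif TGACGTCA in it. The starts of other gland products lay on both sides of that of Gif. Pgc, encoding pepsinogen C of chief cells, was at percentiles 91.0 and 89.8 and the pit cell gene Gkn1 at 81.6 and 83.3. The pit cell genes Gkn2 and Muc5ac were at 37.3 and 52.6 and at 58.9 and 74.9, and Muc6 of mucous neck cells at 45.3 and 42.5. Tff2, the other mucous neck cell gene listed, was at 81.6 and 83.3. The pit cell gene Tff1 was at 83.7 and 83.3, and the chief cell gene Bhlha15 at 85.0 and 91.3.

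Esrrg spans 606.095 kb (chr1:187608791-188214885, plus strand) and had open coding starts at both ends of a 389036 bp interval. The inner start had the strongest region of the locus, chr1:187997716-187997865, with a signal of 88 in replicate 1 (percentile 91.5) and 89 in replicate 2 (87.7). The region at the outer start had 38 (39.4) and 54 (52.6), below the inner one in both replicates. Of the other 13 shared regions, 12 were intronic and one lay at the start of a noncoding gene, Gm36388. They had signals from 24 to 71 in replicate 1 and from 27 to 76 in replicate 2. The weakest region of all 64 was among them, at percentile 11.2 in replicate 1 and 4.97 in replicate 2.

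The largest difference in the number of peaks between replicates was at Esrrg. Replicate 1 had 32 peaks in the locus and replicate 2 had 21, although replicate 2 had the longer list over the genome. Of these, 17 in replicate 1 and 5 in replicate 2 had no partner. The 17 had a median signal of 26 with a range of 11 to 73, and the shared ones had a median of 39 in the same replicate. Over all 9 loci 64 of 91 peaks of replicate 1 had a partner (70.3%, 95% Wilson interval 60.3 to 78.7), against 77.6% of all its peaks. In replicate 2 it was 65 of 89 (73.0%, 63.0 to 81.2), against 70.7%. These intervals cover counting error only. Without the Esrrg locus the shares were 83.1 and 72.1%. Peaks without a partner had a median percentile of 24.5 over 27 peaks in replicate 1, with a range of 1.22 to 89.7, and of 42.5 over 24 in replicate 2, with a range of 10.1 to 69.7. Without Esrrg the medians were 45.3 over 10 peaks and 49.4 over 19.

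**Figure D3:**
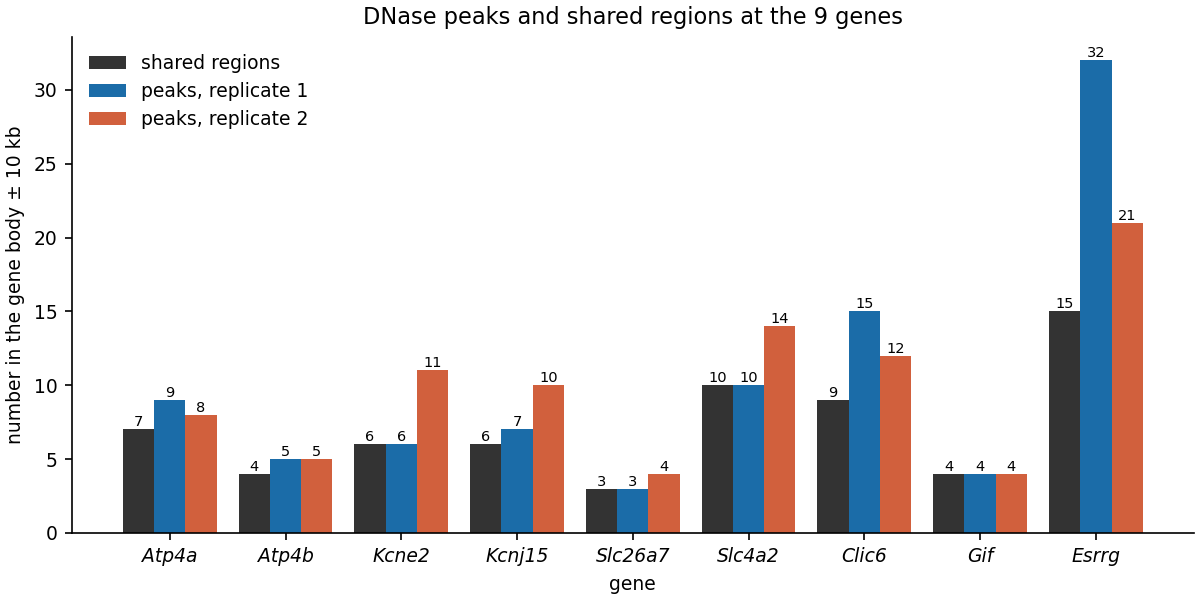
Number of shared regions, of peaks in replicate 1 and of peaks in replicate 2 in each locus (gene and 10 kb flanks). Atp4a, Clic6 and Esrrg have more peaks in replicate 1, Kcne2, Kcnj15, Slc26a7 and Slc4a2 more in replicate 2, and Atp4b and Gif the same number in each.

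Where a region was found in both replicates, its strength was alike in most cases. Signals of the 64 regions had a Spearman coefficient of 0.883 between replicates, and those of all 105606 shared regions 0.910. This is a description across regions of the same 2 libraries. The percentiles differed by a median of 6.24 points, with 7 regions over 20 points and a largest gap of 29.0. The share of all shared regions over 20 points is not given, so the 7 cannot be called many or few. Of those 7, 3 lay in the Gif locus, its start among them, and the regions at the starts of Slc26a7, Slc4a2, Atp4b and the inner start of Esrrg were not. The deposited q value is given as its −log10 and limited at 100. In both replicates it was at that limit for the hotspots of 19 of the 64 regions. That is a smaller share than over all shared regions, where it was 44.5%. The upstream site of Atp4a with the ERR motif, its internal site with the GC box, the outermost starts of Kcne2, Slc26a7 and Slc4a2 and the inner start of Esrrg were at the limit in both. The start of Atp4b had −log10 q values of 3.81 and 1.68.

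**Figure D4:**
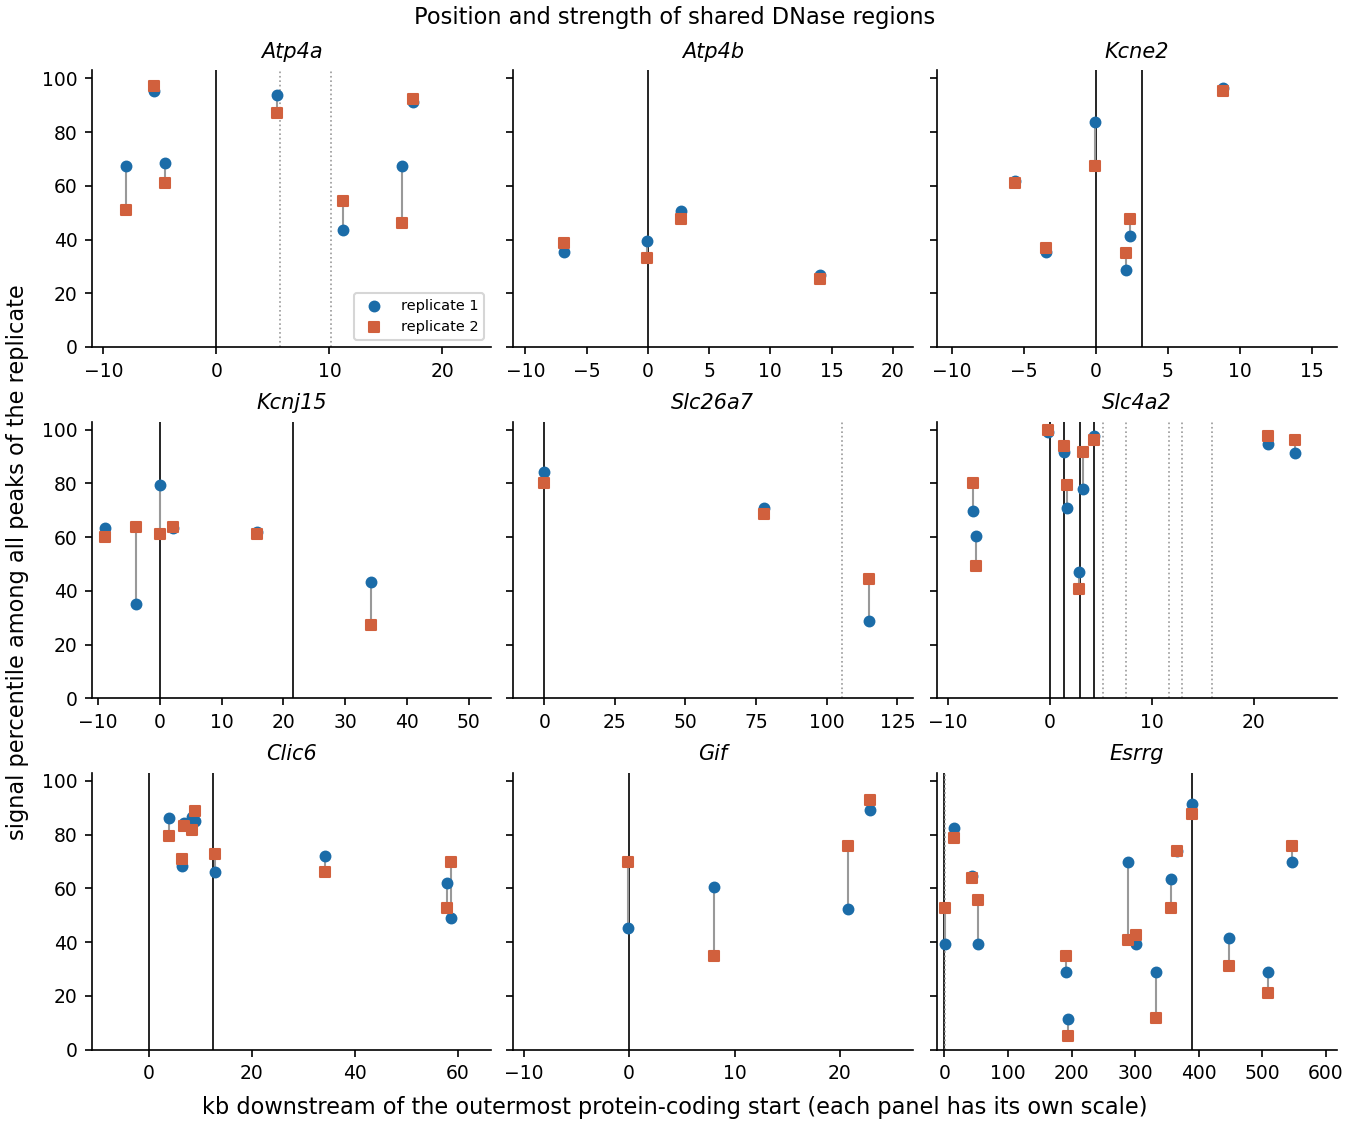
Position of each of the 64 shared regions relative to the outermost protein-coding start (x axis, kb, with its own scale in each panel) and its signal percentile among all peaks of replicate 1 (circles) and replicate 2 (squares). Solid lines are coding starts and dotted lines other annotated starts; Atp4a has strong regions 5.51 kb upstream, 5.37 kb downstream and 17.42 kb downstream of a start with none, and all 4 regions of Atp4b lie near or below the middle of the scale.

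Of the 64 regions, 38 held a match to at least 1 of the 11 motifs, searched on both strands. The share of all shared regions with any match is not given, so the 38 cannot be called many or few. The ERR motif TCAAGGTCA was in 1 of the 64 regions (1.56%), the upstream site of Atp4a, and in 0.326% of all shared regions. It was not in the regions at the starts of Atp4b and Kcne2. The shorter nuclear receptor string AAGGTCA, which is part of the ERR motif and so counts the same site again, was in 4 regions (6.25%) of Atp4a, Atp4b and Clic6, against 3.77% of all. The GATA motif AGATAA was in 7 regions of Kcnj15, Clic6, Gif and Esrrg (10.9%), against 10.1%, and the forkhead motif TGTTTAC in 3 (4.69%), against 4.77%. The SOX motif AACAATG was in 4 regions of Kcne2, Slc26a7 and Esrrg (6.25%), against 2.73%. The AP-1 motif TGANTCA was in 10 (15.6%), against 13.1%, and the GC box in 9 (14.1%), against 17.6%. HNF4, Grainyhead-like and ETS (CCGGAAGT) strings were in 1 region each (1.56%). The share of all shared regions was 1.03% for HNF4 and 2.30% for Grainyhead-like, and for ETS it was also below 1.56%. CREB was in 2 (3.125%), against 0.816%. Both CREB regions lay at the starts of other genes, Tmem147 and Mrpl16, and the ETS region at that of Tmub1. Member regions and all shared regions had the same median width, 170 bp. The Grainyhead-like string of the bases before the Atp4a start was in 1.79% of 32851 RefSeq promoter sequences. A match is a string of letters in the reference and not a measured binding site.

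Other genes of acid secretion, listed by role, were mostly open too. Of 28 genes 24 were open at any start, against the 66.4% of all protein-coding genes given above, with medians of 8 shared regions per locus and 1.07 per 10 kb, against 4 and 0.791 over all protein-coding loci. All 8 genes of tubulovesicle and apical membrane trafficking were open, as were 9 of 11 pumps, channels and exchangers, 4 of 5 receptors of secretagogues and inhibitors, and 3 of 4 nuclear receptors and coactivators. The most regions were at Kcnq1, the channel that Kcne2 joins, with 31 in 340.681 kb and a start at percentiles 87.2 and 78.6. Rab27b, a small GTPase of vesicle traffic, followed with 18, and Hip1r, which links the pump's membranes to actin, with 17 in 51.931 kb.

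The 4 genes without an open start differed in what the single replicates held. Hrh2, the histamine receptor of parietal cells, had a peak at a start in replicate 2 alone, and its locus held 5 shared regions elsewhere. Aqp4, a water channel of parietal cells in mice, had one in replicate 1 alone. Esrrb, a relative of Esrrg, had a peak near a start in each replicate, and these did not overlap. Kcnj16, a potassium channel, had none in either replicate. The other receptors were open at moderate strength. Chrm3, the muscarinic receptor, was at percentiles 66.0 and 72.9 and Cckbr, the gastrin receptor, at 55.8 and 58.5. These starts were stronger than that of Atp4b in both replicates, and the start of Esrra, the other estrogen-related receptor listed as open, was at 99.4 and 98.7.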

How the data were processed

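Each replicate of newborn mouse stomach gave lists of peaks and hotspots on mm10, called from its own filtered alignments per the file lists deposited with them. The signal of the deposited peaks takes whole values, 149 at most, on no stated scale, so it served for ranking and thresholds inside each replicate and nothing else. Hotspots carry, by the layout of the deposited files, the −log10 of a q value, from 1.30 to 100. The sources used here do not give the aligner, peak caller, thresholds or read numbers, so depth is unknown and limits which weak sites were called. The labels name a HiSeq and a NextSeq instrument for replicate 2 and no instrument for replicate 1.

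Scripts in Python 3.11.15 (pandas 2.3.3, pysam 0.24.0), tested on simulated peaks, kept peaks on autosomes, X and Y (139374 and 152779) and joined peaks of both replicates overlapping by at least 1 bp. A percentile ranks tied signals at their middle. Starts within 500 bp were grouped, CpG ratios cover 500 bp on either side of a start, and 27 repeated gene symbols were dropped. Of the coding genes, 85 have no protein-coding transcript and were left out where coding starts were used. Promoter sequences are RefSeq's (build GRCm38.p6, the assembly of mm10), with entries for 6 of the 9 genes, and the other sequences come from the reference genome. Some sequences are not reported here.

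With 1 group nothing was tested. The members, gene lists and motifs were chosen with earlier results of these data known. All members were named, with the region nearest to a start and the strongest region of each locus, and pathway genes with no open start or with the 3 highest counts of regions. Other regions, starts and genes given with values were chosen after their values were seen. Alternatives changed the overlap, peak strength, list length, locus flank, start window, transcripts, replicates, motif and hotspot threshold.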

Additional observations from a re-analysis of the deposited data

How the results depend on the processing

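All 9 genes were open with peaks of 50% mutual overlap, lists of equal length, either replicate alone, a 2.5 kb window and shared hotspots. With a 250 bp window 8 were open (not Clic6), with protein-coding transcripts alone 8 (not Atp4a), with the stronger 50% of peaks 7 (not Atp4b and Gif), and at the outermost coding start, an alternative chosen after seeing the data, 7 (not Atp4a and Clic6). The share of all protein-coding genes that were open was 65.6% with 50% mutual overlap, 59.1% with the stronger peaks, 68.2 to 69.4% with a replicate left out, 62.6% with the 250 bp window, 70.0% with 2.5 kb, 65.2% with coding transcripts and 61.8% at the outermost coding start. The share of member peaks found in both replicates was 71.7% over both lists, 68.9% with 50% mutual overlap, 75.2% with the stronger peaks, 68.8% in gene bodies alone and 77.2% without Esrrg, also chosen after seeing the data; it has no value for a single replicate.

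The 64 regions became 38 with the stronger peaks and 128 with 50 kb on either side. The median per locus was 7 to 10 with a replicate left out, 3 in gene bodies and 15 with 50 kb, and the density 0.638 with the stronger peaks, 1.59 to 1.63 with a replicate left out, 1.26 in gene bodies and 0.946 with 50 kb. The medians over all protein-coding loci under these settings are not given. The member values here therefore cannot be set against the general medians above. Regions with an ERR motif numbered 0 in gene bodies and 4 with AAGGTCA, and shared hotspots 59, or 17 at the highest q value. Counts at single genes moved by over 1.5 times in 20 of 63 cases. No paired analysis was possible because the series has 1 group.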
